A study of Mus musculus with 6 samples.

Results

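The 5 enzymes described here make proline or break it down: Aldh18a1, Pycr1, Oat, Prodh and Aldh4a1. They were chosen by name, as the genes of the glutamate and ornithine routes to proline and of the route back, and all 5 were found among the 16540 genes measured. The RNA came from NIH-3T3, a long-established line of fibroblasts from NIH/Swiss mouse embryos. In all groups the cells were infected with lentivirus for Cas9 and a guide RNA, selected with puromycin at 2 ug/mL and kept as polyclonal pools rather than clones. The control guide was R26 sg1, named after the Rosa26 locus, while PC sg2 and PC sg5 carry the name of pyruvate carboxylase (mouse gene Pcx), a mitochondrial enzyme that turns pyruvate into oxaloacetate. Each guide had 2 libraries, and every pool spent its last 48 h in DMEM with 0.2 mM glutamine and 10% dialyzed serum. The series title asks about pyruvate carboxylase and collagen production.

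Proline can be built from glutamate or from ornithine. P5CS, the product of Aldh18a1, reduces glutamate to a semialdehyde that closes into pyrroline-5-carboxylate, and ornithine aminotransferase, the product of Oat, forms the same intermediate from ornithine in a reversible reaction. Reductases of the Pycr family turn pyrroline-5-carboxylate into proline; proline dehydrogenase (Prodh) and the dehydrogenase encoded by Aldh4a1 lead back to glutamate. Collagen chains are rich in proline, and DMEM as usually formulated has no proline.

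Recovered reads, the whole reads behind the deposited normalised counts, came to between 22895172 (PC sg5 replicate 2) and 71710049 (control replicate 2) per library. For Pcx, the targeted gene, the control pair stood at 2914 and 3015 normalised counts, the PC sg2 pair at 316 and 375 and the PC sg5 pair at 713 and 716, and Gt(ROSA)26Sor changed by 0.0041 on the log2 scale. All 8 fibroblast markers checked were present, and their summed level was 1224500 to 1274700 normalised counts across controls against 510513 to 530787 across PC libraries. All 8 fell with the PC guides, and their part in the results was not tested. Of 32 markers of 6 other cell types, 11 were among the genes measured. Their highest summed level was 2009, for leukocytes and macrophages, whose sum was 1919 to 2009 across controls against 1246 to 1324 across PC libraries. The endothelial sum was 99.9 to 100.1 against 234 to 344, but of the 3 endothelial markers tested by limma only 1, Vwf, rose. Vwf was higher by 2.00 ± 0.17 on the log2 scale (SE, adjusted p 5.24e-10). Pecam1 changed by 0.44 ± 0.46 (SE, adjusted p 0.418) and Tek by -0.21 ± 0.38 (SE, adjusted p 0.637). The adipocyte, muscle and epithelial sums were at most 90.6 and lower in all PC libraries. No hepatocyte marker was measured. The part of these markers in the results was not tested, and the defining markers Ptprc, Epcam, Myod1, Adipoq, Cdh5 and Alb were not among the genes measured. In such bulk RNA, fewer cells of a kind and less RNA per cell cannot be told apart.

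With the PC guides pooled against the control, the transcripts of Aldh18a1 (glutamate route) and Pycr1 (last step to proline) rose slightly. The transcript of the ornithine route, Oat, fell to about 50% of its control level, and the breakdown route moved in both directions. Aldh18a1, Pycr1 and Prodh rose and Oat and Aldh4a1 fell, so 5 of 5 were past an adjusted p of 0.05 by limma with Benjamini-Hochberg adjustment. Among all 16526 genes tested 67.9% were past it, 34.3% higher and 33.6% lower. All 4 PC libraries lay outside the range of both controls for each of the 5 genes, as they did for 73.2% of all genes (36.6% higher and 36.6% lower). A count of 5 is therefore near the background of these libraries. Larger changes in either direction were found in 66.3% of all tested genes for Aldh18a1, 70.2% for Pycr1 and 63.2% for Aldh4a1. The shares were 27.7% for Prodh and 18.5% for Oat. The median log2 fold change of the 5, which is the value of Pycr1, was 0.24, against -0.0093 over all genes tested.

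**Figure D1:**
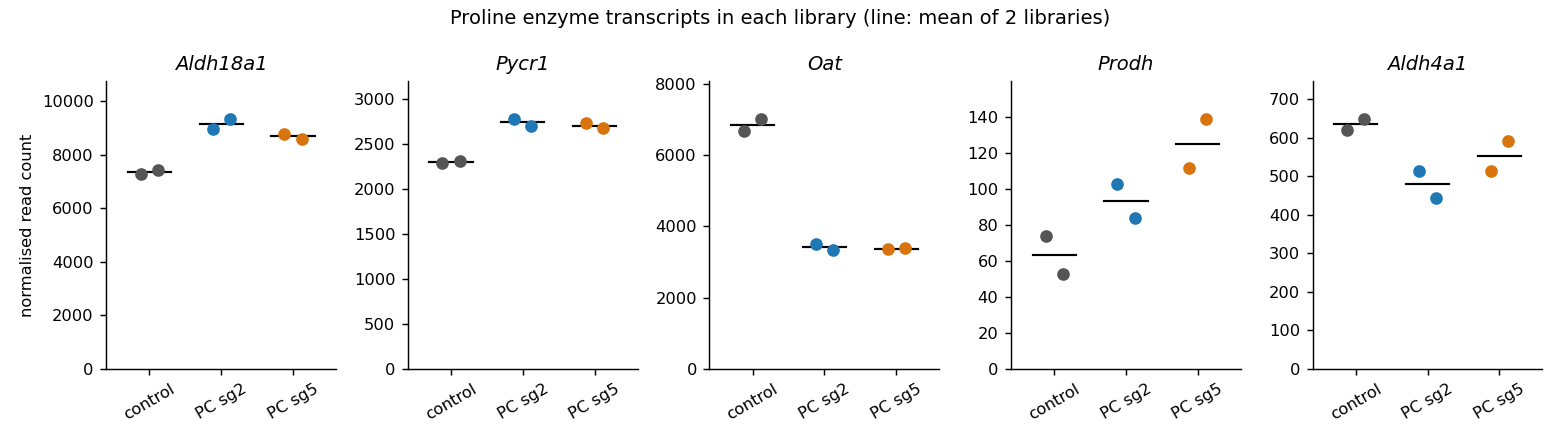
Normalised read counts (vertical axes, each starting at 0) of the 5 enzyme transcripts in the 6 libraries, grouped by guide, with 1 point per library and a line at the mean of 2. Oat stood at 6683 and 7029 in the controls and at 3344 to 3505 in the PC libraries, while Aldh18a1 and Pycr1 were modestly higher, and the points of Prodh and Aldh4a1 spread more within a guide.

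Aldh18a1 (ENSMUSG00000025007, GRCm38 chromosome 19, 40550257 to 40588463, minus strand, protein coding) encodes the enzyme that commits glutamate to proline. The control pair stood at 7301 and 7421 normalised counts, the PC sg2 pair at 8966 and 9358 and the PC sg5 pair at 8793 and 8603. Every PC library was above both controls, and the lowest of them exceeded the higher control by more than the controls differed from each other. The mean rose from 7361 ± 84.4 (SD, n = 2) to 8930 ± 321 (SD, n = 4), which is 121% of the control. The log2 fold change, taken on log2(value + 1), was 0.28 ± 0.03 (SE), with an adjusted p of 3.02e-08.

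Pycr1 (ENSMUSG00000025140, chromosome 11, 120635712 to 120643769, minus strand, protein coding) encodes a mitochondrial reductase of the last step. Controls gave 2292 and 2310 normalised counts, PC sg2 gave 2779 and 2694, and PC sg5 gave 2726 and 2670. The PC libraries did not overlap the controls and lay close to one another. The mean went from 2301 ± 12.6 (SD, n = 2) to 2717 ± 47.4 (SD, n = 4), or 118% of the control. Its log2 fold change of 0.24 ± 0.04 (SE) had an adjusted p of 2.51e-05, and 70.2% of all tested genes changed by more in either direction.

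Oat (ENSMUSG00000030934, chromosome 7, 132557478 to 132576398, minus strand, protein coding) had the largest change of the 5 genes. Controls gave 6683 and 7029 normalised counts, PC sg2 gave 3505 and 3344, and PC sg5 gave 3373 and 3386. The 4 PC libraries formed a narrow band far below the controls. The mean fell from 6856 ± 245 (SD, n = 2) to 3402 ± 71.3 (SD, n = 4), which is 49.6% of the control level. The log2 fold change was -1.01 ± 0.04 (SE), with an adjusted p of 3.65e-16. Changes larger than this in either direction were found in 18.5% of all tested genes, and 11.3% of genes fell at least 2-fold, as Oat did, while 6.48% rose at least 2-fold. No 50-base stretch of the Oat transcripts occurs in a transcript annotated to another gene.

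Prodh (ENSMUSG00000003526, chromosome 16, 18060357 to 18090203, minus strand, protein coding) encodes the enzyme that starts proline breakdown and passes electrons to the respiratory chain. It was scarce, and controls gave 73.8 and 52.9 normalised counts, PC sg2 gave 103 and 84.0, and PC sg5 gave 111 and 139. These values rest on 99, 73, 132, 79, 110 and 65 reads in that order. The PC libraries were all above the controls, but the lower PC sg2 library exceeded the higher control by less than the controls differed. The mean rose from 63.4 ± 14.8 (SD, n = 2) to 109 ± 22.8 (SD, n = 4), a log2 fold change of 0.77 ± 0.21 (SE) with an adjusted p of 0.00298. Without control replicate 2 the log2 fold change was 0.54 and the adjusted p 0.0899, which ends the call. The highest value came from the library with the fewest reads, PC sg5 replicate 2, and the lowest from the one with the most, control replicate 2. The part of depth in the result was not tested.

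Aldh4a1 (ENSMUSG00000028737, chromosome 4, 139622866 to 139649690, plus strand, protein coding) encodes the mitochondrial dehydrogenase that oxidises pyrroline-5-carboxylate to glutamate. Controls gave 620 and 649 normalised counts, PC sg2 gave 514 and 443, and PC sg5 gave 513 and 590. All PC libraries were lower, and PC sg5 replicate 2 came closest to the controls. The mean fell from 635 ± 20.2 (SD, n = 2) to 515 ± 59.9 (SD, n = 4), a log2 fold change of -0.31 ± 0.09 (SE) with an adjusted p of 0.00440. Without control replicate 2 the adjusted p was 0.0600 and the log2 fold change -0.28. The exons of Gm21969, annotated on the same strand, cover 32.5% of the exon bases of Aldh4a1, and reads from there cannot be assigned to 1 of the genes.

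**Figure D2:**
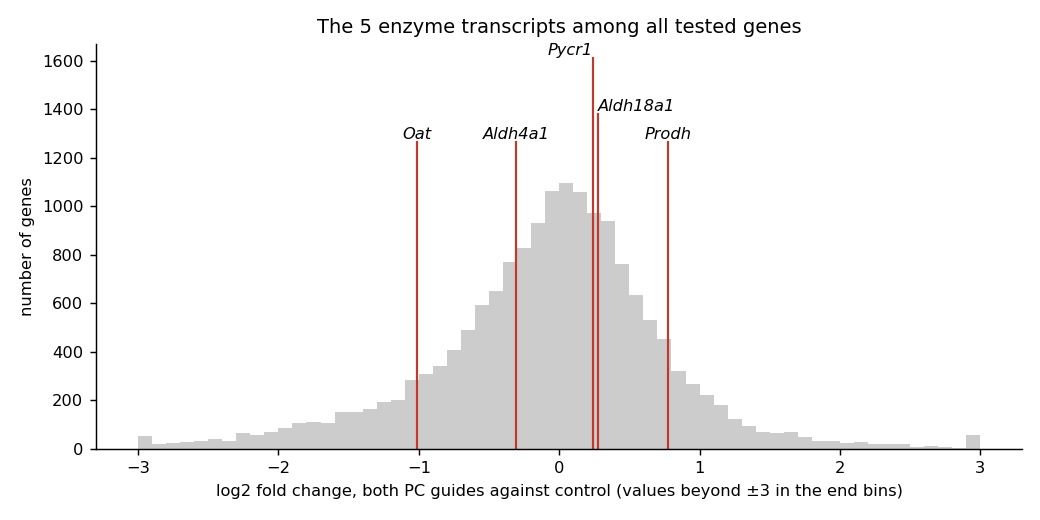
Histogram of the log2 fold change of both PC guides against control (horizontal axis) over the 16526 tested genes (vertical axis, number of genes), with a red line at each of the 5 enzymes. Aldh18a1, Pycr1 and Aldh4a1 sit inside the main mass of genes, Prodh lies toward its upper side, and Oat at -1.01 lies in the lower tail.

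The guides gave much the same picture although they left different amounts of target transcript. Pcx was higher with PC sg5 than with PC sg2 by 1.05 ± 0.08 (SE) on the log2 scale, with an adjusted p of 6.60e-07. None of the 5 enzymes was past the threshold in that direct comparison (limma with Benjamini-Hochberg adjustment), and 0.242% of all tested genes were. At an unadjusted p under 0.05, 1 of the 5 differed between the guides, as did 10.6% of all tested genes. That gene was Aldh18a1, named after its values were seen, whose difference was -0.07 with a 95% interval of -0.15 to -0.0031. The intervals for Oat (-0.11 to 0.07) and Pycr1 (-0.12 to 0.08) were narrow. Those for Prodh (-0.10 to 0.93) and Aldh4a1 (-0.01 to 0.42) leave room for a sizeable difference. A p that misses the threshold does not show that the guides act alike.

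Taken singly, each guide is compared with the same 2 controls. With PC sg2, Aldh18a1 and Pycr1 rose (log2 fold changes 0.32 and 0.25), Aldh4a1 fell (-0.41) and Oat fell to a mean of 3425 ± 115 (SD, n = 2). These are 4 of 5 past the threshold, beside 64.5% of all genes (32.9% higher, 31.6% lower). Prodh, at 0.56 ± 0.25 (SE), had an adjusted p of 0.0505 there. With PC sg5, Aldh18a1, Pycr1 and Prodh rose (0.24, 0.23 and 0.98) and Oat fell (-1.02), again 4 of 5 beside 64.5% of all genes (32.6% higher, 31.8% lower). Aldh4a1, at -0.21 ± 0.10 (SE), had an adjusted p of 0.0869 with that guide. Without PC sg5 replicate 2, the library with the fewest reads, its log2 fold change was -0.31 and its adjusted p 0.0303.

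**Figure D3:**
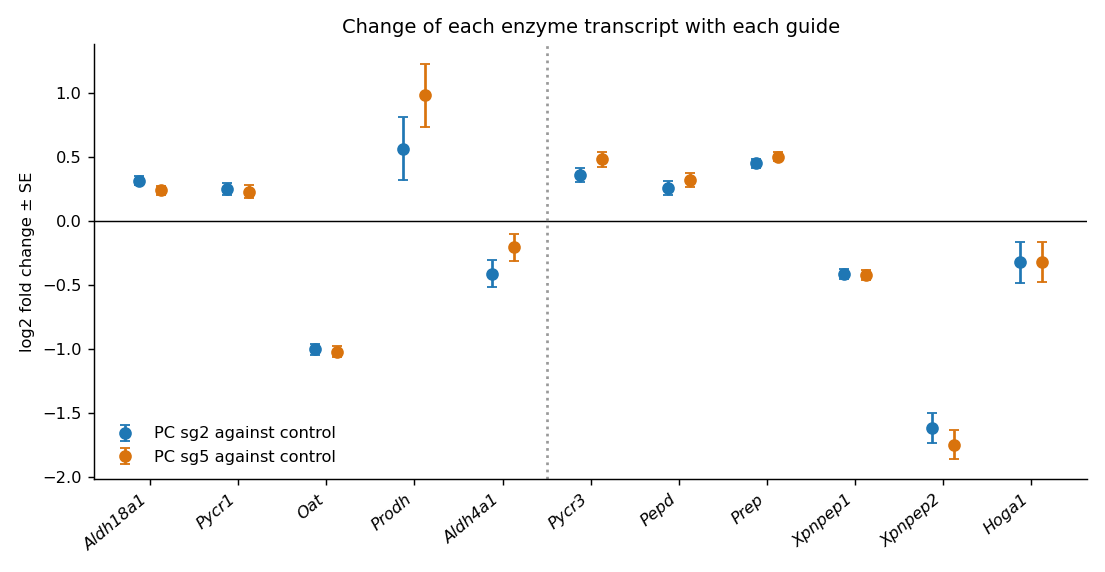
Log2 fold change against control (vertical axis, points with SE) for PC sg2 and PC sg5, with the 5 enzymes left of the dotted line and other enzymes of proline and hydroxyproline metabolism right of it. The points of both guides lie close together for Aldh18a1, Pycr1 and Oat, and furthest apart for Prodh.

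Levels of different genes can be compared only per length, here as normalised counts per kb of exon. In the controls the order was Oat (2905 ± 104, SD, n = 2), Aldh18a1 (1808 ± 20.7), Pycr1 (585 ± 3.21), Aldh4a1 (129 ± 4.11) and Prodh (8.13 ± 1.90). In the PC libraries Aldh18a1 came first (2193 ± 78.9, SD, n = 4) and Oat second (1441 ± 30.2), followed by Pycr1 (691 ± 12), Aldh4a1 (105 ± 12.2) and Prodh (14.0 ± 2.93). No neighbours in either order overlapped in any library, so transcripts for synthesis stood above those for breakdown in every pool. The order was the same when the longest annotated transcript was used as the length.

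The ratio of Aldh18a1 to Oat inside 1 library does not depend on the size factor. It compares a transcript of the glutamate route with a transcript of the ornithine route. Per kb of exon it was 0.633 and 0.612 for the control pair, 1.48 and 1.62 for PC sg2, and 1.51 and 1.47 for PC sg5. The balance of these transcripts thus lay on the side of Oat in both controls and on the side of Aldh18a1 in all 4 PC libraries. The mean ratio went from 0.623 ± 0.015 (SD, n = 2) to 1.52 ± 0.07 (SD, n = 4), a factor of 2.44. The ratio of Pycr1 to Prodh, by contrast, overlapped: 61.5 and 86.5 in the controls against 38.1 to 63.6 in the PC libraries.

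Pycr3 (listed as Pycrl), the cytosolic reductase, also rose. Controls gave 1850 and 2071 normalised counts, PC sg2 gave 2478 and 2541, and PC sg5 gave 2637 and 2830. No PC library overlapped the controls. The log2 fold change was 0.42 ± 0.05 (SE), with an adjusted p of 1.38e-07. Per kb of exon, the ratio of Pycr3 to Pycr1 was 2.37 and 2.64 for the control pair and 2.62 to 3.12 across the PC libraries, so the groups overlapped on this measure. No 50-base stretch is shared between the annotated transcripts of both genes.

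**Figure D4:**
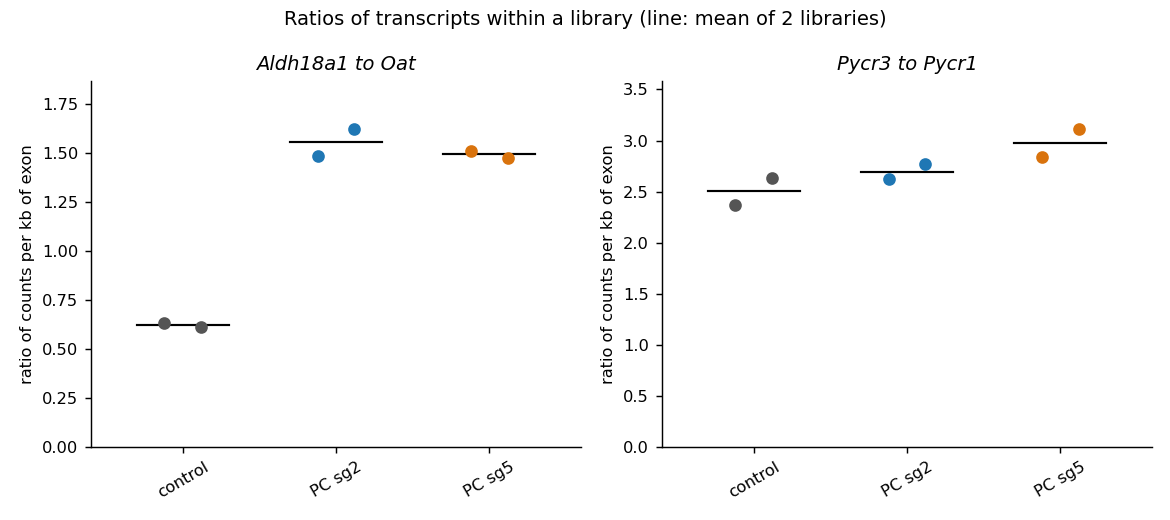
Ratio of Aldh18a1 to Oat (left) and of Pycr3 to Pycr1 (right) in normalised read counts per kb of exon, on axes from 0, with 1 point per library and a line at the mean of 2. The left ratio is 0.612 and 0.633 for control pools against 1.47 to 1.62 for PC pools, while on the right the lowest PC library (2.62) lies below the higher control (2.64).

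The upstream sequences of the genes of synthesis are shown because 2 transcription factors known to act on this pathway rose in the same libraries. ATF4, the factor of the amino acid response, is known to bind the element TGATGNAA, and MYC binds the E-box CACGTG. Atf4 went from 12942 to a mean of 23871 normalised counts (log2 fold change 0.88 ± 0.02, SE, adjusted p of 2.14e-18), and Myc rose by 2.89 ± 0.03 (SE). The 250 bases before each RefSeq start (GRCm38.p6, reference strain C57BL/6J) follow from 5′ to 3′ along the gene's strand, with matches to either element, on either strand, in capitals.
Pycr1 (chr11:120643749-120643998, minus strand): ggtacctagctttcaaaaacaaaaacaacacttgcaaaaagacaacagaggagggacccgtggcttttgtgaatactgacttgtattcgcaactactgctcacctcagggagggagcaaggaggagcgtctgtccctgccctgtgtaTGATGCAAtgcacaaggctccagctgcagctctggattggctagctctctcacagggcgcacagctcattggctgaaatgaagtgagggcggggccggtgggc
Aldh18a1 (chr19:40588464-40588713, minus strand): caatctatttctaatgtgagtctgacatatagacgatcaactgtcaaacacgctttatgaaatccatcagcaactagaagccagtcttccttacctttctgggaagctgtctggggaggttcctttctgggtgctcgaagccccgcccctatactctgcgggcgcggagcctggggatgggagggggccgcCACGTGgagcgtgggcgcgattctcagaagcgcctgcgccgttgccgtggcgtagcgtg
Oat (chr7:132576399-132576648, minus strand): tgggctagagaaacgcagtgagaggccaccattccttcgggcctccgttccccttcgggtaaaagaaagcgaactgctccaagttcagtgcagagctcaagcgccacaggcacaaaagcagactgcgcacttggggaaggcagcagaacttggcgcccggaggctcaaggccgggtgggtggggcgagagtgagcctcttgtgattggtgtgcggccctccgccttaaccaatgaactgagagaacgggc

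Pycr1 holds TGATGCAA from 103 to 96 bases before its start, a match found in 3.45% of the 32851 RefSeq starts with such a window. Aldh18a1 holds CACGTG from 59 to 54 bases before its start, a match found in 6.02% of starts. The windows of Oat, Prodh and Aldh4a1 hold neither run of letters, which says only that these letters are not in these windows. For Prodh the window (chromosome 16, 18089191 to 18089440) lies within the gene span given above. A match is a description of the reference, and binding of either factor was not measured here. All 5 enzymes were matched to this table. Of the other regulators known for Prodh, Trp53 rose by 0.11 ± 0.03 (SE) and Pparg, on the same log2 scale, fell by 0.63 ± 0.10, and their part in the values of Prodh was not tested. The call of Trp53 was lost without the intensity trend of the model (adjusted p 0.106).

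Besides Pycr3, enzymes that release proline from peptides or degrade hydroxyproline moved in both directions. Of 6 tested genes of the list of other proline enzymes, Pycr3 included, 3 rose and 3 fell (median log2 fold change -0.0153, against -0.0093 over all genes tested). The prolidase gene Pepd, whose product frees proline from dipeptides such as those of collagen, rose by 0.29 ± 0.05 (SE), and the prolyl oligopeptidase gene Prep by 0.47 ± 0.03. The aminopeptidase P genes Xpnpep1 and Xpnpep2, which cut before a proline, fell by 0.42 ± 0.03 and 1.68 ± 0.10. Hoga1, an enzyme of hydroxyproline breakdown, fell by 0.32 ± 0.14 with an adjusted p of 0.0440, a call that was kept without PC sg2 replicate 1 or PC sg5 replicate 2 and lost without any other single library (adjusted p 0.0567 to 0.265). With quantile normalisation the value for Hoga1 was -0.098 (adjusted p 0.540), and the call was also lost with equal totals without the 50 most abundant genes (0.0806) and with DESeq2 (0.0930). Prodh2 is not analysed here.

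Of 8 tested genes that supply or drain ornithine, 6 rose and 2 fell, with a median log2 fold change of 0.66. Among all genes tested 34.3% rose and 33.6% fell in this comparison, with a median of -0.0093, which is the background for the counts of each list given here. The arginase genes Arg1 and Arg2, whose products make ornithine from arginine, rose by 1.86 ± 0.34 (SE) and 0.55 ± 0.19 from low control levels of 15.4 and 87.1 normalised counts. The call of Arg2 was lost without control replicate 1 (adjusted p 0.112) and without PC sg2 replicate 1 (adjusted p 0.0675), and also without the intensity trend of the model (adjusted p 0.0599). The mitochondrial ornithine carrier gene Slc25a15 rose by 0.67 ± 0.07 and the basic amino acid carrier gene Slc25a29 by 0.64 ± 0.09. Odc1, which turns ornithine toward polyamines, rose by 0.70 ± 0.03, and Azin1, which protects that enzyme from degradation, by 0.80 ± 0.03. Ass1 and Asl, which make arginine from citrulline, fell by 0.53 ± 0.03 and 0.32 ± 0.06.

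On the side of glutamate, 11 of 15 tested genes rose, 2 fell and 2 missed the threshold (median 0.34), beside 34.3% of all genes higher and 33.6% lower. The 3 with the smallest p-values were Got1, an aspartate aminotransferase (1.49 ± 0.03, SE), the glutamate transporter gene Slc1a3 (-1.41 ± 0.04) and Gpt2, a mitochondrial alanine aminotransferase (0.78 ± 0.04). Leaving out 1 library at a time gave 9 to 12 genes that rose. Of 6 tested transporters that can carry proline, 3 rose and 3 fell. Slc38a1 rose by 1.35 ± 0.03 and Slc1a4 by 1.13 ± 0.03, while Slc38a4 fell by 1.04 ± 0.04. In the short list for NADP and NADPH, the reducing power that P5CS uses, 1 of 5 rose and 3 fell, or 4 without PC sg5 replicate 1. The NAD kinase gene Nadk rose by 0.44 ± 0.04, whereas the other NAD kinase gene of the list, Nadk2, fell by 0.16 ± 0.04. Idh2 and Nnt fell by 0.63 ± 0.03 and 0.46 ± 0.03.

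A further list holds genes that charge proline to tRNA or hydroxylate it in collagen, with partners of those hydroxylases such as Crtap and Ppib. Among its 12 genes 10 fell, 1 rose and 1 missed the threshold (median -0.54 on the log2 scale), beside 33.6% of all genes lower and 34.3% higher. These counts were the same without any 1 of the libraries. P4ha3, a subunit of collagen prolyl hydroxylase, fell by 1.99 ± 0.07 (SE), and P4hb, the subunit shared by these enzymes, by 0.61 ± 0.02. The exception was Eprs, the synthetase that charges glutamate and proline to their tRNAs in the cytosol, which rose by 0.60 ± 0.02. By limma with Benjamini-Hochberg adjustment, Hoga1 has the highest adjusted p (0.0440) of the genes said here to have risen or fallen. These lists are described only, and their direction was not tested as a set.

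The proline that the measured transcripts encode was counted as proline codons in the coding sequences of 13031 genes, each weighted by its normalised count per kb. The share of these prolines that lies in the 33 collagen genes was 9.57% and 9.89% for the control pair, 5.08% and 4.97% for the PC sg2 pair, and 4.90% and 5.01% for the PC sg5 pair. All PC libraries were therefore near 50% of the control share. Without length correction the share was 12.4% ± 0.22 (SD, n = 2) in the controls and 6.53% ± 0.10 (SD, n = 4) in the PC libraries. Col1a1 alone is 19.0% proline (276 of 1453 residues), against a median of 5.54% over all genes counted. Over all coding genes, proline made up 6.40% ± 0.014 (SD, n = 2) of encoded residues in the controls and 6.22% ± 0.012 (SD, n = 4) in the PC libraries. Only glycine and cysteine had larger relative falls among the 20 amino acids. With collagen genes left out the shares were 6.01% ± 0.004 and 6.02% ± 0.010. These are codons in RNA and say nothing of how much protein was made, and no test was applied.

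**Figure D5:**
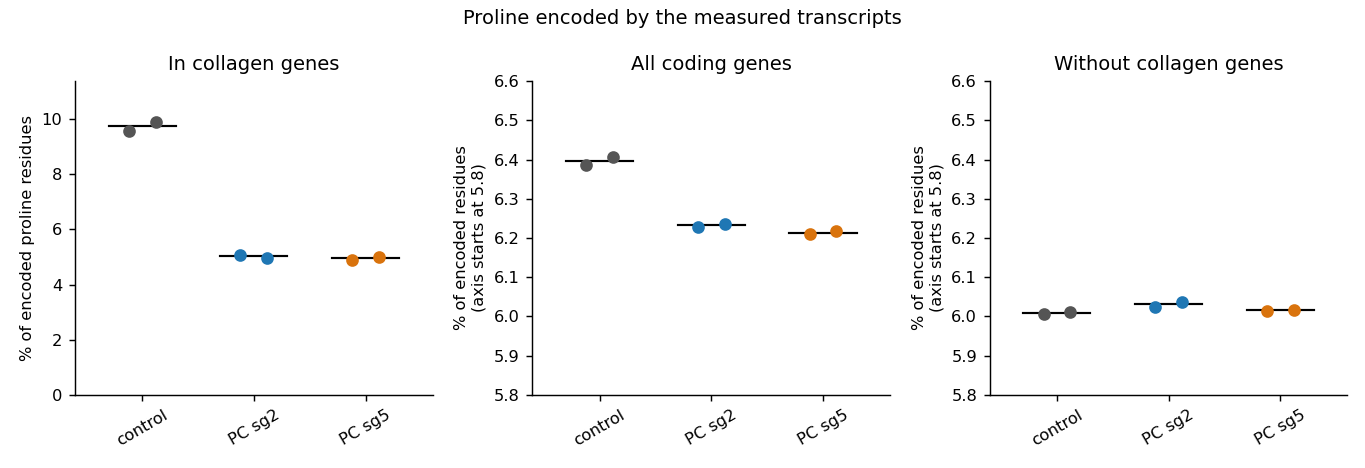
Proline encoded by the transcripts of each library, with 1 point per library and a line at the mean of 2: the percentage of encoded prolines in collagen genes (left, axis from 0), and proline as a percentage of all encoded residues with (middle) and without (right) collagen genes, on axes that start at 5.8. The PC libraries lie below the controls on the left and in the middle. On the right the difference is small and runs the other way, at 6.015% to 6.038% against 6.005% and 6.011% for controls.

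The genes whose profile over the 6 libraries lay closest to each enzyme were found by the Euclidean distance of log2 values centred on each gene's mean, among the 11795 genes whose mean reached 100 normalised counts. For Oat they were Dnm1, Rdh10 and Rcn1 (distances 0.047 to 0.057), and Ankrd17 and Afg3l1 were among the nearest to Aldh18a1 (0.031 and 0.033). Dhx15 and Slx4 were among the nearest to Pycr1 (0.024 and 0.035), and Arhgap26, Svbp and Hmgb1-ps7 to Aldh4a1 (0.096 to 0.103). Prodh had no neighbour nearer than 0.221, and its closest were Arhgap27, Grtp1 and Gm5900. The mean of Prodh itself lay below 100 normalised counts, so genes as scarce as Prodh were not among the candidates. The part of its low counts in this distance was not tested. With 6 libraries that fall into a control and a PC set, many genes share such a profile.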

How the data were processed

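The file that the authors deposited gives a normalised read count for each gene and library, a signal in which each library's reads are divided by a size factor. Per the submitters' processing notes the tools were bcl2fastq 2.17, Trimmomatic, STAR, featureCounts and DESeq2, with build GRCm38. Settings, annotation, strand: not given in the sources used here. Dividing by 1 step per library made 100% of the nonzero values whole (tolerance 0.01), so reads could be recovered, and 3 reads equal 2.18 to 6.41 normalised counts. This floor covers counting error only. Identifiers were matched to GENCODE M21 (16491 of 16540).

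Tests were two-sided, by limma 3.58.1 (R 4.3.3), on log2 of the normalised count plus 1. The 3 groups of all 6 libraries shared 1 model with an intensity trend. Genes reaching 10 in 2 or more libraries (16526) were tested, p-values were adjusted over them by Benjamini-Hochberg, and the threshold was an adjusted p of 0.05. The limma steps were tested on simulated data with far fewer changed genes than were called here and with known size factors. That run checks the steps and not the calls made here. Alternatives included edgeR 4.0.16, which called 11424 genes for both PC guides against control, and DESeq2 1.42.0, which called 10604 (limma 11222). Whether a guide's libraries are separate cultures is not in the labels. The p-values therefore cover the spread between these 6 libraries alone, which may be technical. Replicates were not paired in the main model, as the labels do not say what replicate number marks. Proline codons were counted in the longest GENCODE coding sequence of each gene, where a protein table had been planned. The named genes are the 5 enzymes, Pcx, Gt(ROSA)26Sor, all tested genes of the lists of other proline enzymes, ornithine genes and regulators, the 3 with the smallest p of each other list (Col1a1 was added as an example of proline content), and the 3 nearest profiles per enzyme. Nadk2 was added as the other NAD kinase gene of its list, and Vwf, Pecam1 and Tek as the endothelial markers tested. A few genes are not reported here, and list counts leave them out. Members and lists were chosen with earlier results of these data known.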

Additional observations from a re-analysis of the deposited data

How the results depend on the processing

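Of 351 values of the 5 enzymes under other settings, 339 kept their side of the threshold and 0 changed sign past it. Values short of the threshold in both fits could change sign and still count among the 339. Between the guides, Pycr1 (-0.02 in the main fit) reached 0.0021 and Oat (-0.019) reached 0.015. Aldh18a1, Pycr1 and Oat kept direction and side of the threshold for both PC guides against control in all 17 alternatives. For both PC guides against control, leaving out 1 library gave 0.54 to 1.01 for Prodh and -0.36 to -0.25 for Aldh4a1, and both calls were lost without control replicate 2. Prodh with PC sg2 against control was past the threshold with a pseudocount of 10 (0.50), a mean filter of 50 or the replicate block (0.56 each), quantile normalisation (0.75), equal totals without the 50 most abundant genes (0.60) and edgeR (0.56). Leaving out 1 library gave 0.33 to 0.80 (adjusted p 0.0276 to 0.359), past the threshold without control replicate 1 or either PC sg5 library. Over all alternatives its adjusted p was 0.0116 to 0.359. Aldh4a1 with PC sg5 against control ranged from -0.31 to -0.11 without 1 library. The cause was not tested.

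Counts of called genes against control stayed within 1.5 times. PC sg5 against PC sg2 had 40 calls, but 65 with a pseudocount of 10 and 65 with the mean filter (fewer genes tested), 0 without the intensity trend (limma, 1241 at an unadjusted p under 0.05), 68 with edgeR, 91 with DESeq2 (adjusted over 1468 genes only) and 10 to 218 without 1 library. The largest count came without PC sg5 replicate 1 and the smallest without PC sg2 replicate 2; without PC sg2 replicate 1 there were 14 and without either control 26. The replicate block gave 160. Differences between replicate 1 and 2 correlated at 0.019 to 0.045 between groups. These differences include counting noise, so the correlations cannot settle whether replicate number marks a shared culture or day. The proline share without length correction was 6.75% in controls and 6.52% with PC guides, and without collagen genes 6.01% and 6.02%. Scaling moved the median gene by at most 0.0624. Prodh rests on 65 to 132 reads per library.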
